A study of Mus musculus with 3 samples.

Results

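Late round spermatids at the start of protamine transcription were taken from 3 droplet libraries of adult mouse testis as barcodes with acrosome transcripts and an intermediate share of protamine and transition protein transcripts. Of 33038 barcodes, 8276 held at least 10000 UMIs (unique molecular identifiers, which tag single captured mRNA molecules) with at most 10% of them mitochondrial. A member had at least 10 UMIs of Acrv1, Spaca1, Tex36 and 1700001P01Rik together, more than its UMIs of the spermatocyte genes Piwil1, Mybl1, Tdrd1, Aurka, Cdc25c and Ccna1, and from 0.5% to under 5% of its UMIs in Prm1, Prm2, Tnp1 and Tnp2. The rule found 449 members, which were thus chosen by measured UMI counts, and the 14 genes it uses are described here and not tested. These genes and the mitochondrial genes were left out of every comparison of single genes between stages or libraries. Marker sums, chromosome and ribosomal protein shares and genes per cell were taken over all UMIs, with them included.

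The study asked what the loss of Tex10 does to spermatogenesis. Tex10 encodes a subunit of a nuclear complex with Pelp1, Wdr18 and Senp3 that takes part in ribosome maturation. Each of the 2 wildtype libraries (replicates 1 and 2) came from 1 mouse, and the knockout library held cells pooled from 2 conditional Tex10 knockout animals. Values for 3 libraries are given in that order, wildtype replicates first and knockout last. All mice carry the strain label C57BL/6N, and the cell type in which Tex10 was deleted, the driver of the recombinase and the deleted exons are not given in the sources used here. The single knockout library holds no replicate of its own, and the mice inside it cannot be told apart, so no test of knockout against wildtype was made. The libraries serve as 3 replicates in the comparisons between stages, where p-values measure the spread between these libraries only.

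In round spermatids the haploid nucleus is still packed with histones, and the acrosome, the enzyme vesicle of the sperm head, spreads over its surface. Transcription then turns to the proteins that will repackage the genome. Transition proteins (Tnp1, Tnp2) replace histones first and protamines (Prm1, Prm2) replace the transition proteins, and the mRNAs of both are made in round spermatids, stored and translated days later, after transcription has stopped. Cells on either side of the members were used for comparison. They met the same acrosome and spermatocyte conditions with a protamine and transition protein share under 0.5% (called early round) or from 5% to under 20% (called elongating, by the share and not by cell shape).

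CREM, a transcription factor of round spermatids, is known to bind cAMP response elements, whose full form reads TGACGTCA, and variants of this element lie in front of many spermatid genes. The bases just upstream of the 4 protamine and transition protein genes of the rule are shown because their transcripts set the members' place. Prm3, Ccin and Lelp1 follow as late spermatid genes outside the rule. The sequences are from RefSeq on GRCm38.p6, 120 bases each up to the base before the annotated start, on the strand of the gene. Capitals mark matches to TGACNTCA on either strand, N being any base.
Prm1, chr16:10796824-10796943, minus strand: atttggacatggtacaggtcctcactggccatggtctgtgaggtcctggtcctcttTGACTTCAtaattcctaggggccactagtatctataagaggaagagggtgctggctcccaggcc
Prm2, chr16:10792106-10792225, minus strand: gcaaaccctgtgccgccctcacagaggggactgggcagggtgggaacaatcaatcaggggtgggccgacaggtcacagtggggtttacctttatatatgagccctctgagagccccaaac
Tnp1, chr1:73015900-73016019, minus strand: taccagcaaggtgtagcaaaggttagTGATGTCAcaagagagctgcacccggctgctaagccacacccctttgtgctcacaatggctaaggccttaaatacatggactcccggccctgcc
Tnp2, chr16:10788656-10788775, minus strand: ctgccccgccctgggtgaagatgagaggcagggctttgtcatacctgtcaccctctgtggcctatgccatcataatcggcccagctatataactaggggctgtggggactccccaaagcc
Prm3, chr16:10790915-10791034, minus strand: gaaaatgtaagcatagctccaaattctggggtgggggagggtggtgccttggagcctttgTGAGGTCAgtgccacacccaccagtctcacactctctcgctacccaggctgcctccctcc
Ccin, chr4:43983384-43983503, plus strand: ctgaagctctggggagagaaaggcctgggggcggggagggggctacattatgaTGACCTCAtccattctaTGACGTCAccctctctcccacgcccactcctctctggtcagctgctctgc
Lelp1, chr3:92142755-92142874, minus strand: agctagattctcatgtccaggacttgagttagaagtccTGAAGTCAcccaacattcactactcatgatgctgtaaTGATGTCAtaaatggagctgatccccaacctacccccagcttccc

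Prm1 and Tnp1 each hold 1 match in these windows, Prm2 and Tnp2 hold none, and the full element TGACGTCA stands only in the Ccin window among the 7 sequences. Over the 250 bases upstream of the start, TGACNTCA occurs in 7.49% of the 32851 RefSeq promoters and TGACGTCA in 1.55%. A match is a string of letters and not a measured binding site.

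Members made up 4.66% of the eligible barcodes in wildtype replicate 1 (108 of 2318, exact 95% binomial interval 3.84 to 5.60%). The share was 7.66% in wildtype replicate 2 (210 of 2742, 6.69 to 8.72%) and 4.07% in the knockout library (131 of 3216, 3.42 to 4.82%). The knockout share thus lay below both wildtype shares, by 2.09 percentage points against their mean, and closer to wildtype replicate 1 than the wildtype libraries lay to each other. Among acrosome-positive barcodes alone, members were 17.7%, 22.1% and 18.9% in the same order, and the knockout value lay between the wildtype values. These intervals cover counting error only.

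Total depth was 93418341, 96001773 and 147783171 UMIs, and the median member had 29188, 26622 and 39501. From 55 to 58 barcodes of each library occurred in another library, 1 or 2 of them among its members. The doublet caller marked 0, 1 and 0 barcodes, so it did not work here and no doublets were removed. Sertoli cells, the nurse cells of the germ line, left a clear trace: 17 of the 449 members held at least 20 UMIs of the 8 Sertoli markers (6, 2 and 9 by library). Those 17 carried 96.5%, 69.9% and 95.7% of all Sertoli marker UMIs in the members. Their median mitochondrial share was 7.61%, 1.67% and 4.70%, against 0.0380%, 0.0495% and 0.0454% in the other members. Summed Sertoli marker levels were 112 to 740 CPM (per-million counts, here of all UMIs of the members) with them and 18.8 to 34.4 without them.

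Other marker lists were read the same way. The 8 spermatogonia markers summed to 19.2 to 27.1 CPM and the 6 Leydig markers to 4.08 to 78.4. That 78.4 belonged to wildtype replicate 1 and was 1.79 without its barcodes of at least 20 Sertoli marker UMIs. The 8 macrophage markers summed to 5.42 to 11.2 with C1qc at 0 in every library. The 5 endothelial markers summed to 2.00 to 6.48 with Esam at 0. For the 5 erythroid markers the sum was at most 1.72, with all globins at 0. The 6 peritubular myoid markers summed to 291 to 362 CPM, nearly all from Actg2. Des and Myh11 were at 0 in wildtype replicate 1 and the knockout library. The 8 spermatocyte markers summed to 166, 188 and 238, highest in the knockout library. The 8 elongating spermatid markers summed to 5066, 5961 and 6044 CPM in members. In early round barcodes these summed to 2178, 2640 and 2829, and in elongating ones to 7162, 7538 and 8065. Acrv1, Spaca1, Prm1 and Tnp1, the markers of the label, are also used by the rule, so their sum cannot check it. They summed to 9163, 10662 and 9804 CPM in members. The sum was 2842 to 3089 in early round barcodes and 52812 to 58090 in elongating ones.

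The members' place along the protamine share was not even. In the lowest bin, from 0.5% to under 0.75%, lay 57 of 108 members in wildtype replicate 1, 81 of 210 in wildtype replicate 2 and 56 of 131 in the knockout library. From 2% to under 5% lay 22, 67 and 39. Spermatocyte barcodes, which should lack protamine transcripts, had a median share of 0.165%, 0.199% and 0.154%. Their 95th percentile was 0.373% and 0.489% in the wildtype libraries but 1.99% in the knockout library, where 45 of 517 lay at or above 0.5%. The part of free RNA or of doublets in the lowest bin was not tested.

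Barcodes just outside and just inside the lower limit had close levels of the 4 genes. On the scale of all UMIs, Prm1 stood at 1341, 1410 and 1295 CPM from 0.4% to under 0.5% and at 1837, 1827 and 1612 from 0.5% to under 0.75%. Tnp2, the transition protein gene next to the protamine cluster, stood at 973, 927 and 969 and then at 1299, 1415 and 1431. Both changes are steps along a gradient that the rule itself orders.

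The mix of the 4 transcripts changed along the members. Tnp1 and Tnp2 together were 29.5 to 36.4% of the 4 genes' UMIs in barcodes under a share of 0.2%, 47.4 to 51.0% from 0.5% to under 0.75%, and 32.1 to 39.2% from 3.5% to under 5%. The transition protein part was thus at its highest near the lower limit of the members, within or beside the lowest bin, in all 3 libraries. Prm2 stood at 1304, 1205 and 1337 CPM in that lowest bin and at 14318, 12743 and 12645 in the highest member bin. Those values chose the bins and carry no test.

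The mitochondrial share of UMIs, which the rule limits only at 10%, was 0.608%, 0.613% and 0.362% in the median barcode under a protamine share of 0.2%. In the lowest member bin it was 0.0442%, 0.0540% and 0.0521%. The drop lay between shares of 0.2% and 0.5%, before the members began. Wildtype replicate 1 stayed at 0.560% up to a share of 0.4%, where the knockout library was already at 0.103%.

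**Figure D1:**
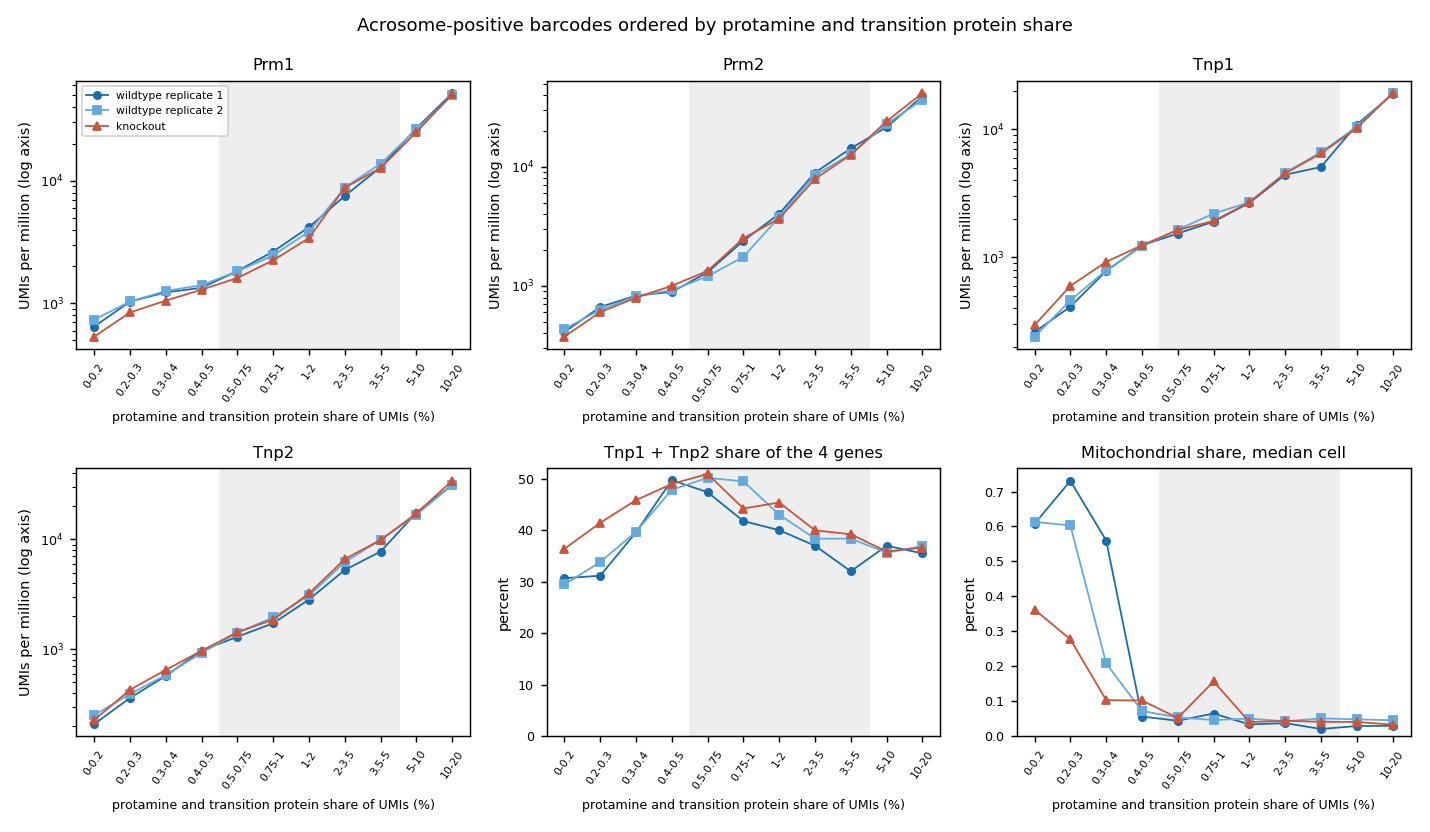
Levels of Prm1, Prm2, Tnp1 and Tnp2 (CPM of all UMIs, log axes), the share of Tnp1 and Tnp2 among the 4 genes, and the mitochondrial share of the median barcode (both in percent), by bin of protamine and transition protein share on the horizontal axis, with 1 line per library. The grey band marks the members. The transition protein part is highest at its left edge, and the mitochondrial share has already dropped there.

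Against early round spermatids, 2930 of 13200 genes tested were higher in the members (22.2%) and 1010 were lower (7.65%). A call needed an edgeR quasi-likelihood adjusted p under 0.05 and a change of at least 2-fold, with the library as a block. Against elongating spermatids, 1297 genes were higher in the members (9.83%) and 1865 were lower (14.1%). Genes that passed the test in both comparisons in the same direction, with no limit on size, numbered 553 above both neighbours (4.19%) and 140 below both (1.06%). The balance of these calls depends on scaling: higher genes were 74.4% of the calls against early round and 41.0% against elongating with TMM (trimmed mean) factors, but 60.3% and 66.2% when counts were scaled by library size alone. That change moves the median log2 fold change of all genes from -0.01 to -0.23 and from 0.08 to 0.43. From here on CPM are taken over UMIs outside the rule genes and mitochondrial genes, without TMM, fold changes are the fitted log2 values with TMM, and mean ± SD is over the 3 libraries.

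The largest rises came in genes close to silent in early round spermatids. Tmco5b stood at 2.20, 1.69 and 2.31 CPM in early round and at 56.3, 79.2 and 69.9 CPM in members, a log2 fold change of 5.27 ± 0.19 (SE, edgeR adjusted p = 8.72e-10). The groups were far from overlapping. Trp53tg5 went from 6.79 ± 0.268 to 158 ± 32.8 CPM, Prss37, a testis serine protease homologue needed for sperm migration in the oviduct, from 3.75 ± 0.166 to 79.7 ± 18.2 CPM, and Tuba8, an alpha-tubulin, from 6.15 ± 0.798 to 141 ± 28.3 CPM. Of the 10 named rises, which also hold 1190005I06Rik, Fam71b, Hemgn, Fam71a, Cst13 and 4930417H01Rik, all were higher again in elongating spermatids. For 1190005I06Rik, 46.1% of the 31-base words at its transcript ends also occur in Gm27021, so its reads may be split.

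Falls were smaller. Dcdc2a, a doublecortin family gene, had 61.0, 59.1 and 48.4 CPM in early round and 13.8, 11.8 and 5.32 CPM in members (log2 fold change -2.29 ± 0.20, edgeR adjusted p = 7.75e-07). Pxt1 went from 87.9 ± 10.9 to 16.6 ± 8.56 CPM, Cabcoco1 from 267 ± 23.7 to 61.2 ± 23.3 CPM, and Sirt3, the mitochondrial protein deacetylase, from 53.7 ± 5.82 to 11.9 ± 3.23 CPM. In each of these 4 genes the lowest early library lay above the highest member library. The other named falls were Gm6588, Rfx8, Spag1, Gm3453, 1700029P11Rik and Sh3gl1, and 88.3% of the end words of Gm3453 occur in other genes.

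Genes of histone replacement gave 7 higher and 2 lower than early round among 23 tested of 24 listed, where 22.2% of all genes tested were higher and 7.65% lower. The list's median log2 fold change was 0.18, against -0.01 for all genes. H2al2a, a histone variant that opens nucleosomes for the transition proteins, stood at 38.8, 33.8 and 35.6 CPM in early round and at 310, 376 and 364 CPM in members (log2 fold change 3.5 ± 0.10, edgeR adjusted p = 6.8e-10). All H2al2a member values lay far above the early ones (350 ± 35.1 against 36.1 ± 2.55 CPM), and elongating spermatids reached 998 ± 21.4 CPM. Tssk6, a kinase needed for histone H3 phosphorylation and removal in spermatids, rose from 53.1 ± 9.09 to 422 ± 48.9 CPM and stood at 1121 ± 158 CPM in elongating ones. H1fnt, a testis linker histone, rose from 207 ± 32.4 to 917 ± 127 CPM, Cdyl, a chromodomain protein of spermatids, from 84.4 ± 12.7 to 328 ± 27.5 CPM, Prm3 from 833 ± 115 to 2134 ± 197 CPM and Chd5, a remodeler of histone exchange, from 152 ± 39.8 to 279 ± 48.2 CPM.

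The seventh was H3f3b, which encodes replacement histone H3.3. It stood at 3442, 3478 and 3610 CPM in members, 1967, 1933 and 2040 CPM in early round and 2105, 2011 and 1342 CPM in elongating spermatids, above both neighbours in every library (log2 1.04 ± 0.12 and 0.62 ± 0.12, edgeR adjusted p = 1.1e-05 and 0.000959). Its companion gene H3f3a, for the same protein, moved by 0.31 and -0.23. The 2 falls were Hist1h1t, the meiotic linker histone, from 20.2 to 6.90 CPM and Psma8, the testis proteasome subunit, from 37.9 to 15.4 CPM. Hils1, another spermatid linker histone, had 1113 and 1916 CPM and a log2 fold change of 1.00 just under the limit of size. Scaled by library size alone, 5 of the list were higher and 4 lower.

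Transcription factors of spermatids mostly moved by less than 2-fold. Among 17 tested of 18 listed, 1 was higher and 3 were lower than early round (22.2% and 7.65% over all genes), with a median of -0.26. The riser was Fhl5, the testis coactivator of CREM, at 227, 241 and 292 CPM in early round and 632, 714 and 803 CPM in members (log2 1.72 ± 0.11, edgeR adjusted p = 5.56e-08). Crem itself had 552 ± 23.5 CPM in early round and 499 ± 23.6 CPM in members (log2 0.07 ± 0.08, edgeR adjusted p = 0.468). Tbpl1, the TATA-binding protein relative needed for round spermatid development, fell from 918 ± 99.6 to 381 ± 68.9 CPM and Tbp, the general factor, from 54.7 ± 7.72 to 13.6 ± 4.99 CPM. Hsf5 fell by 1.30 on the log2 scale. Sox30, a haploid gene activator, had 105 and 177 CPM and a log2 value of 0.97.

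Translation in these cells waits on stored mRNA. Among 23 tested genes of mRNA storage and translation control, 2 were higher and 2 lower than early round (22.2% and 7.65% over all genes), with a median log2 of -0.15. Higher than elongating were 5, against 9.83% over all genes. Samd4, an RNA-binding repressor of the Smaug type, had 266, 298 and 280 CPM in early round and 622, 689 and 656 CPM in members (log2 1.43 ± 0.09, edgeR adjusted p = 6.18e-08). Paip2b, an inhibitor of poly(A)-binding protein, rose from 38.6 ± 2.91 to 120 ± 16.3 CPM. Pabpc1, which it binds, had 1051 and 719 CPM with a log2 value of -0.33. The germ granule genes Ddx4 and Tdrd7 were among the 5 that were higher than elongating, at 213 ± 11.8 against 78.3 ± 17.3 CPM and 79.2 ± 13.2 against 23.4 ± 6.87 CPM. Ybx2, the mRNA-binding protein that stores protamine mRNA, had 692, 539 and 526 CPM along the 3 stages.

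The perinuclear theca is the protein shell between the acrosome and the nucleus. Its gene list, like the others here, was chosen with earlier results of these data known. The list had 10 of 17 tested genes higher than early round and none lower, against 22.2% and 7.65% over all genes. Its median was 1.03 against early round and -1.15 against elongating, where 9 were lower in members (14.1% over all genes). Scaled by library size alone, the counts were 8 and 5. With no limit on size, 16 of the 17 passed as higher, against 33.1% of all genes tested as higher and 25.6% as lower. Actrt3, an actin-related protein that partners profilin in the head, had 2.77, 3.19 and 3.62 CPM in early round and 37.2, 51.4 and 69.5 CPM in members (log2 4.26 ± 0.21, edgeR adjusted p = 6.86e-09). Elongating spermatids held 294 ± 62.1 CPM. Wbp2nl, a theca protein shed into the egg, had 0.756 ± 0.227, 18.3 ± 4.59 and 73.0 ± 10.4 CPM along the 3 stages, so the members stood between the levels of the other stages. Spem1, needed to strip cytoplasm from the sperm head, rose from 16.7 ± 2.36 to 141 ± 5.95 CPM, and Ccin, the calicin gene whose promoter holds TGACGTCA, from 44.7, 44.9 and 53.1 CPM to 226, 264 and 277 CPM. Actrt2, Actl9, Iqcf1, Spem2, Actl7a and Capza3 also rose.

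**Figure D2:**
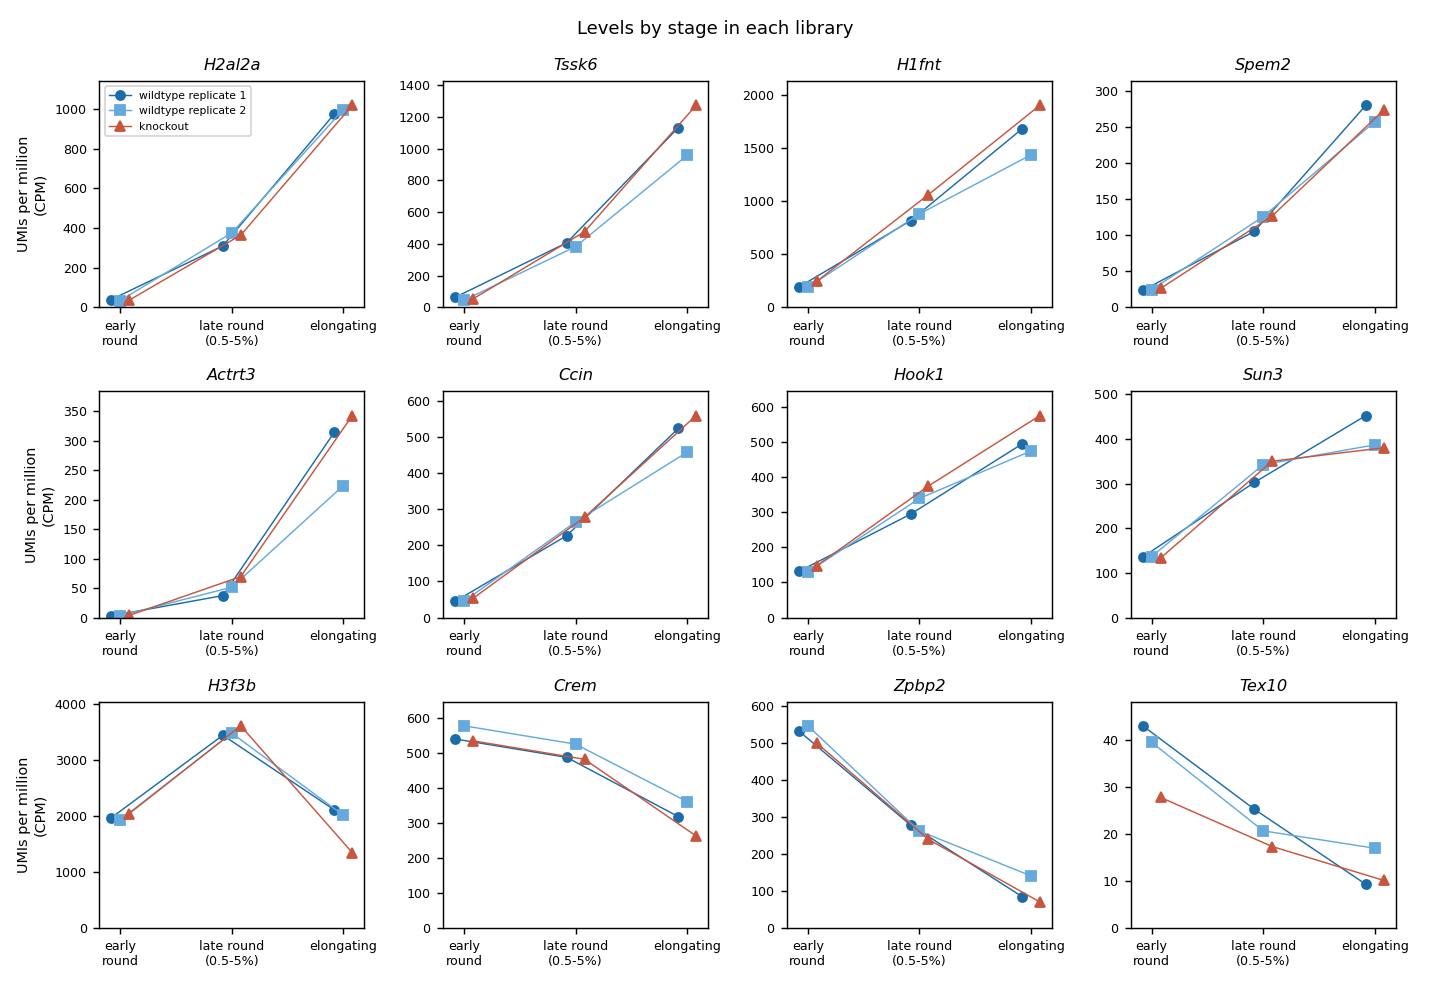
CPM of 12 genes in early round, late round (the members) and elongating spermatids, with 1 line per library. H2al2a, Tssk6, H1fnt, Spem2, Actrt3, Ccin, Hook1 and Sun3 climb through the members, H3f3b is highest in them, and Zpbp2 and Tex10 are highest in early round. Crem is highest in early round only in these CPM without TMM, as its fitted change against early round did not pass the test.

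Of 26 acrosome genes tested, 4 were higher and 3 lower than early round, shares near the 22.2% and 7.65% of all genes, with a median of 0.11. Spaca9 rose from 431 ± 34.4 to 1233 ± 99.0 CPM, and Izumo1, the sperm protein that binds the egg receptor, from 144 to 261 CPM. Spam1, the acrosomal hyaluronidase, had 175, 203 and 193 CPM in early round, 186, 170 and 140 CPM in members and 19.7, 36.4 and 24.7 CPM in elongating spermatids. Members and early round overlapped (log2 0.00 ± 0.12), while the difference from elongating was 2.29 ± 0.15 (edgeR adjusted p = 1.22e-07). Zpbp2, a zona-binding protein, had 526 ± 24.0, 260 ± 19.6 and 98.2 ± 37.4 CPM. The falls were Dpy19l2, which anchors the acrosome to the nucleus, with Tmprss12 and Gopc at low levels.

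Manchette and head-tail coupling genes, which shape the nucleus and attach the tail, gave 7 higher and 1 lower of 20 tested, against 22.2% and 7.65% of all genes (median 0.10). Hook1, a manchette linker, had 132, 130 and 148 CPM in early round and 295, 340 and 375 CPM in members (log2 1.52 ± 0.09, edgeR adjusted p = 2.55e-08). Sun3 and Spag4, of the bridge between manchette and nucleus, rose from 135 ± 1.71 to 332 ± 25.6 CPM and from 438 ± 45.1 to 773 ± 42.7 CPM. Sun5, which fixes the tail to the head, was above both neighbours at 295 ± 15.6 CPM, against 170 ± 16.8 and 177 ± 28.8 CPM. Klc3, a kinesin light chain of the midpiece, was still at 5.86, 4.30 and 8.54 CPM in members and at 131 ± 35.0 CPM in elongating spermatids.

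Tail genes of the fibrous sheath, outer dense fibres and axoneme gave 6 higher and none lower of 29 tested (median -0.02), and the higher share is near the 22.2% of all genes. Tekt5 rose from 23.2 ± 2.57 to 128 ± 28.9 CPM, Akap4, the main fibrous sheath protein, from 238 ± 36.4 to 480 ± 35.8 CPM, and Fscn3 from 3.67, 4.31 and 2.79 to 19.1, 22.2 and 21.8 CPM. Odf3, Ropn1 and Smcp completed the 6. The axonemal dyneins Dnah1, Dnah8 and Dnah17 had log2 values of -0.51, -0.91 and -0.30. Energy genes of sperm gave 4 higher of 21 tested, also near the 22.2% of all genes, among them Gapdhs, the sperm glycolytic enzyme, from 311 ± 31.4 to 596 ± 32.8 CPM. Testis-specific kinases gave 6 higher and 1 lower of 12 tested (22.2% and 7.65% over all genes), among them Stk35 from 96.7, 89.1 and 94.7 CPM to 204, 216 and 216 CPM.

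**Figure D3:**
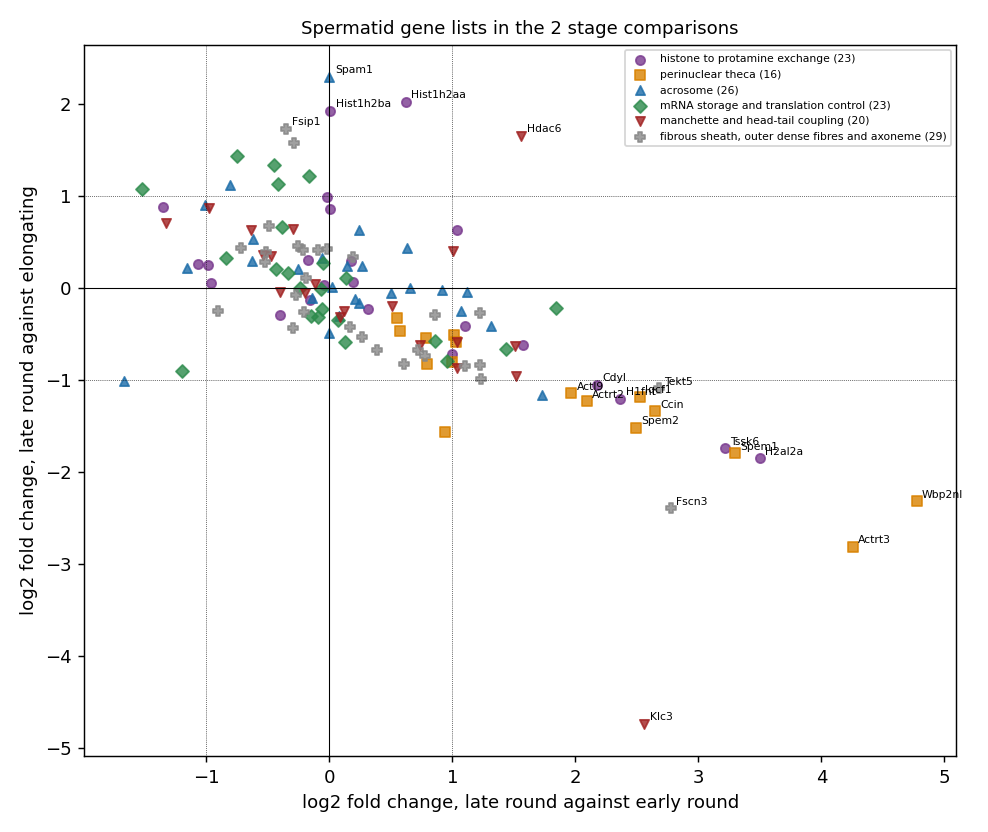
Each point is a gene of 6 spermatid lists, with its log2 fold change against early round spermatids on the horizontal axis and against elongating spermatids on the vertical axis. Dotted lines mark 2-fold changes, and a gene of 2 lists is drawn once, under the first. Perinuclear theca genes run to the lower right, where members lie above early round and below elongating, with Wbp2nl and Actrt3 farthest.

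Sex-linked transcripts took a larger share in the members than before them. The X chromosome gave 1.06%, 1.08% and 1.13% of UMIs in early round spermatids, 1.78%, 1.79% and 1.91% in members and 2.06%, 1.87% and 1.97% in elongating ones. The early values lay below all member values in each library. Cypt1, an X-linked gene of the spermatid head, went from 389 ± 14.4 to 863 ± 35.7 CPM. The sex-linked list gave 4 higher and none lower of 13 tested, against 22.2% and 7.65% of all genes. The Y chromosome gave 0.0570%, 0.0593% and 0.0596% of member UMIs. Ribosomal protein transcripts gave 5.11%, 5.07% and 4.33% in early round and 4.30%, 4.17% and 3.59% in members.

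The members' own gradient was examined by comparing those with 2% to under 5% protamine share with those at 0.5% to under 1%, a comparison chosen after the data were seen. Of 9153 genes tested, 604 were higher at the later end (6.6%) and 227 lower (2.48%). Without wildtype replicate 2, 447 were lower. Cd46, a complement regulator that rodents keep on the acrosome, had 3.07, 5.93 and 5.72 CPM in the first members and 44.5, 57.5 and 64.0 CPM in the later ones (log2 3.57 ± 0.20, edgeR adjusted p = 5.35e-10). Oxct2a and Oxct2b, the testis forms of the ketone body transferase, rose by 2.90 and 3.05 on the log2 scale. In each, 33.8% of the end words occur in the other, so their reads may be split. H2al2a rose further, from 206 and 242 CPM to 497 and 553 CPM in the wildtype libraries, and Actrt3 went from 17.4, 15.9 and 24.9 to 78.6, 102 and 133 CPM.

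Spam1 fell within the members, from 250, 247 and 212 CPM to 60.0, 66.5 and 38.0 CPM (log2 -1.99 ± 0.10, edgeR adjusted p = 1.65e-10). Tssk5, a testis-specific kinase, had 49.1, 54.5 and 48.2 CPM and then 8.28, 11.6 and 3.46 CPM. The largest fall, Ptgds, came from 2 libraries: 107 and 198 CPM in wildtype replicate 1 and the knockout library against 0 and 6.34 CPM later, but 8.53 and 5.04 CPM in wildtype replicate 2. Cst12, Ldhb and Cst3 were split the same way, and without the Sertoli-marked barcodes 155 genes were lower in place of 227.

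Genes above both neighbours fell into 2 kinds. Erbin, a scaffold protein of cell junctions, had 17.7, 17.4 and 16.7 CPM in early round, 58.4, 60.8 and 49.7 CPM in members and 13.5 ± 2.27 CPM in elongating spermatids (log2 1.91 ± 0.12 and 1.74 ± 0.14, edgeR adjusted p = 3.92e-08 and 5.91e-07). The members of every library stood apart from both neighbours. The long noncoding RNAs Gm33525 and 1700029E06Rik reached 155, 177 and 148 CPM and 182, 183 and 214 CPM, against 42.8 to 68.8 CPM on average in the neighbouring stages. Evi5, Gm29663, Gm34678, 1700109G15Rik, Togaram1, a cilium tubulin-binding protein, Ice1, a subunit of the little elongation complex, and 4930596D02Rik had the same shape. Without the Sertoli-marked barcodes their log2 values moved by at most 0.06.

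The other kind was Ctsl, Clu, Cst9, Cst12 and Defb19. Clu, a secreted chaperone and one of the Sertoli markers, had 132, 33.7 and 238 CPM in members, with the libraries in the order of their Sertoli-marked members. Without the 17 barcodes its log2 value against elongating went from 2.14 to -0.01, and that of Ctsl, a cathepsin made by Sertoli cells, from 2.47 to -0.18. All 7 tested Sertoli markers were above both neighbours with those barcodes, and none was at least 2-fold higher than early round without them. The 17 barcodes were picked by these markers, Clu and Defb19 among them, so the markers' fall was fixed in advance and carries no test. Ctsl, Cst9 and Cst12 are not on that marker list. Of the 553 genes, 420 were also above both without them, where 551 were found in all. Leaving out the knockout library left 273.

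**Figure D4:**
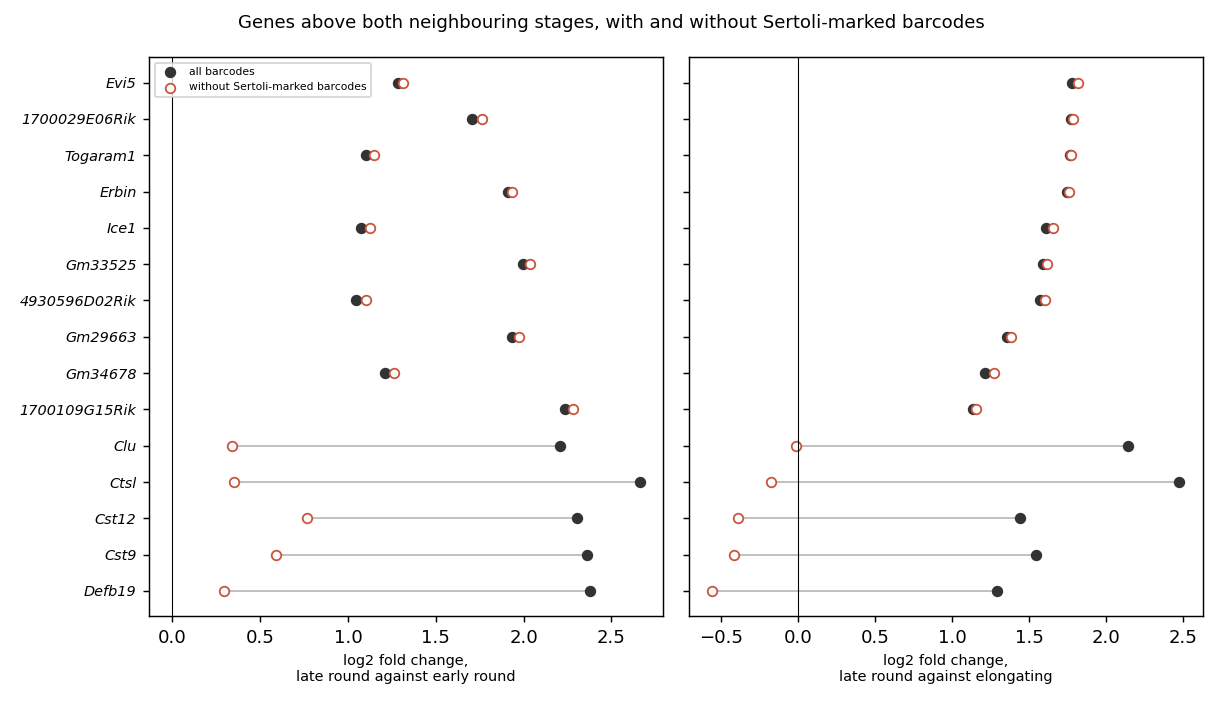
Log2 fold changes of the named genes above both neighbours, against early round (left) and elongating spermatids (right), with all barcodes (filled) and without the Sertoli-marked ones (open). Clu, Ctsl, Cst12, Cst9 and Defb19 move to or below 0 against elongating, while the other 10 stay in place. Clu and Defb19 are among the markers by which those barcodes were picked.

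Against elongating spermatids alone, genes still high in members and then lost included Gm20268, a long noncoding RNA (250 ± 35.2, 194 ± 40.9 and 25.7 ± 9.05 CPM along the stages), Lrrc34, Ift43, a subunit of the intraflagellar transport complex (758, 709 and 743 CPM in early round, 576 ± 44.5 in members and 113 ± 38.0 in elongating), 1700041C23Rik, Gm36368, Tmem39b and Spam1. Plin2, the lipid droplet coat protein, had 64.6, 68.9 and 76.9 CPM in early round, 113, 118 and 107 CPM in members and 21.2, 21.7 and 19.1 CPM in elongating ones (log2 0.89 ± 0.10 and 2.12 ± 0.13, edgeR adjusted p = 1.14e-05 and 6.16e-08). It passed the test in both comparisons. Genes much lower in members than in elongating spermatids were led by 1700003O11Rik, annotated as antisense. It had 1.39, 1.38 and 2.08 CPM in early round, 3.52, 2.51 and 4.37 CPM in members and 129, 97.1 and 195 CPM in elongating ones (log2 -5.69 ± 0.15 against elongating, edgeR adjusted p = 1.04e-09). All 10 named genes of this kind already passed the test as higher than early round, with log2 values from 0.69 (Cby3) to 3.53 (Gm47757). Their early round levels were low, on average 2.82 CPM in Cby3 and 0.291 CPM in Gm47757. Scaled by library size alone, Cby3 (log2 0.48, edgeR adjusted p = 0.0878) and Nectin4 (0.64, edgeR adjusted p = 0.0529) did not pass. Nectin4, an adhesion protein, had 3.88 ± 0.317 and 98.3 ± 19.0 CPM, and Mphosph6, Cby3, 1700034G24Rik, Lmtk3, Klc3, 1700084D21Rik, Gm29585 and Gm47757 had the same order.

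Promoter letters were counted for the genes tested that have an entry in the RefSeq table (9842 of 13200). TGACNTCA occurred upstream of 16.0% of the 2073 such genes higher than early round, 8.49% of the 777 lower and 10.4% of all 9842. For the full TGACGTCA the shares were 2.75%, 3.09% and 3.12%. These shares are descriptions, and their difference was not tested.

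Tex10 lies on chromosome 4 (GRCm38 4:48430858-48473459, minus strand). In members it had 86, 115 and 91 UMIs, or 25.2 CPM (exact 95% Poisson interval 20.2 to 31.1), 20.6 CPM (17.0 to 24.7) and 17.3 CPM (13.9 to 21.2). The knockout value lay below both wildtype values. The single intervals overlapped, while the ratio to the pooled wildtype members was 0.773 with a 95% interval of 0.596 to 0.995, which covers counting error only and not the spread between mice. The 3′ end of the transcript is counted, so where the deletion lies elsewhere this checks nothing about it. Tex10 had 42.9, 39.4 and 27.7 CPM in early round spermatids (527, 631 and 467 UMIs, mean 36.7 ± 7.98 CPM). In elongating ones it had 9.24, 16.9 and 10.1 CPM (12.1 ± 4.21). The knockout library was thus lowest in early round and lay between the wildtype libraries in elongating spermatids. Fitted over all libraries, the log2 value of Tex10 in members against early round was -0.59 (edgeR adjusted p = 0.00491). Among its complex partners, Pelp1 had -0.85 and Wdr18 -0.47, and Mdn1, the large ribosome assembly ATPase, fell by 1.22 on the log2 scale.

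With 1 knockout library, differences in members were read by size: at least 2-fold against each wildtype library after adding 1 CPM, at least 2 times the log2 gap between the wildtype libraries, and at least 20 CPM somewhere. Of 5703 genes, 32 stood above (0.561%) and 38 below (0.666%) the wildtype libraries, 1.23% in all. By the 2-fold limit alone, a looser cut, 84 genes (1.47%) differed between the wildtype libraries, so these shares are not on a like scale. The median size of the log2 ratio was 0.131 between the wildtype libraries. It was 0.183 for the knockout library against wildtype replicate 1 and 0.148 against wildtype replicate 2. No gene of the lists on histone replacement, transcription factors, translation control, acrosome, theca, manchette, tail, energy or kinases met the size rule. Each of these lists had only 12 to 29 genes tested here, so their absence says little beside the 1.23% of all genes. In the sperm membrane and fertilization list 1 of 19 met it, the sperm sodium-proton exchanger gene Slc9c1 (23.5, 17.6 and 7.21 CPM). The median log2 ratio of the knockout to each wildtype library was 0.16 and 0.06 over 13 histone replacement genes and 0.25 and 0.01 over 17 theca genes, against -0.02 and 0.00 over all. On chromosome 4, 18 of 367 genes tested met the size rule (4.90%), against 52 of 5336 elsewhere (0.975%). Chromosome 9 had 13 of 321 (4.05%), chromosome 14 had 11 of 245 (4.49%), and X none of 157, so the share on chromosome 4 was close to those of chromosomes 9 and 14.

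Gm4665, an antisense gene on chromosome 9, had 4.40 CPM (15 UMIs), 3.94 CPM (22 UMIs) and 250 CPM (1319 UMIs) in members. That is 60.8-fold over the pooled wildtype members (43.9 to 86.8, counting error only). In early round spermatids it had 14, 26 and 523 UMIs and in elongating ones 63.2, 48.5 and 564 CPM, so the knockout library stood higher at each stage. Pccb, a propionyl-CoA carboxylase subunit also on chromosome 9, had 39.3, 48.0 and 254 CPM, 5.69-fold higher (5.08 to 6.37). Bloc1s6, a subunit of lysosome-related organelle assembly, had 3.23, 1.79 and 78.8 CPM, and Cachd1, on chromosome 4, had 1.17, 2.33 and 57.7 CPM.

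Some of the higher genes were close to empty in wildtype members. 4930515B02Rik, on chromosome 4, had 1, 2 and 217 UMIs (123-fold, 41.7 to 603). Ephb1, an ephrin receptor, had 1, 6 and 168 UMIs (41.0-fold, 19.5 to 103). Gm41206, Sh3bgrl3 and Gm10338 also met the rule, and 92.2% of the end words of Gm10338 occur in other genes. In these 9 genes, from Gm4665 on, no single barcode held more than 7.59% of the knockout members' UMIs. P3h3, a collagen prolyl hydroxylase, met the size rule with 0, 1 and 148 UMIs, but 147 of the 148 lay in 1 barcode. It had 2.44, 0.438 and 1.72 CPM in early round and 1 UMI in the knockout library's elongating cells, so its value describes that barcode and not the knockout members.

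Rpl29, a ribosomal protein gene of chromosome 9, was lower in the knockout library at every stage: 737, 738 and 82.1 CPM in early round, 624, 588 and 67.4 CPM in members and 514, 594 and 57.8 CPM in elongating spermatids. In members that is 8.93-fold lower (8.02 to 9.97), with 57.7% of its end words shared with other genes. Kpna1, an importin alpha, had 35.2, 35.1 and 3.04 CPM, and Col16a1, a collagen chain on chromosome 4, had 70.4, 74.4 and 8.54 CPM. Aunip, Gm45463, Gm8797, Gm17227, 1700007H22Rik, Gm10847 and Gm27246 were the other named falls. Aunip met the rule in 9 of 13 settings, Gm10847 in 8 and Gm27246 in 11. The share of members that carried Sertoli markers also differed (5.56%, 0.952% and 6.87%), and without those barcodes 28 genes were higher and 37 lower.

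**Figure D5:**
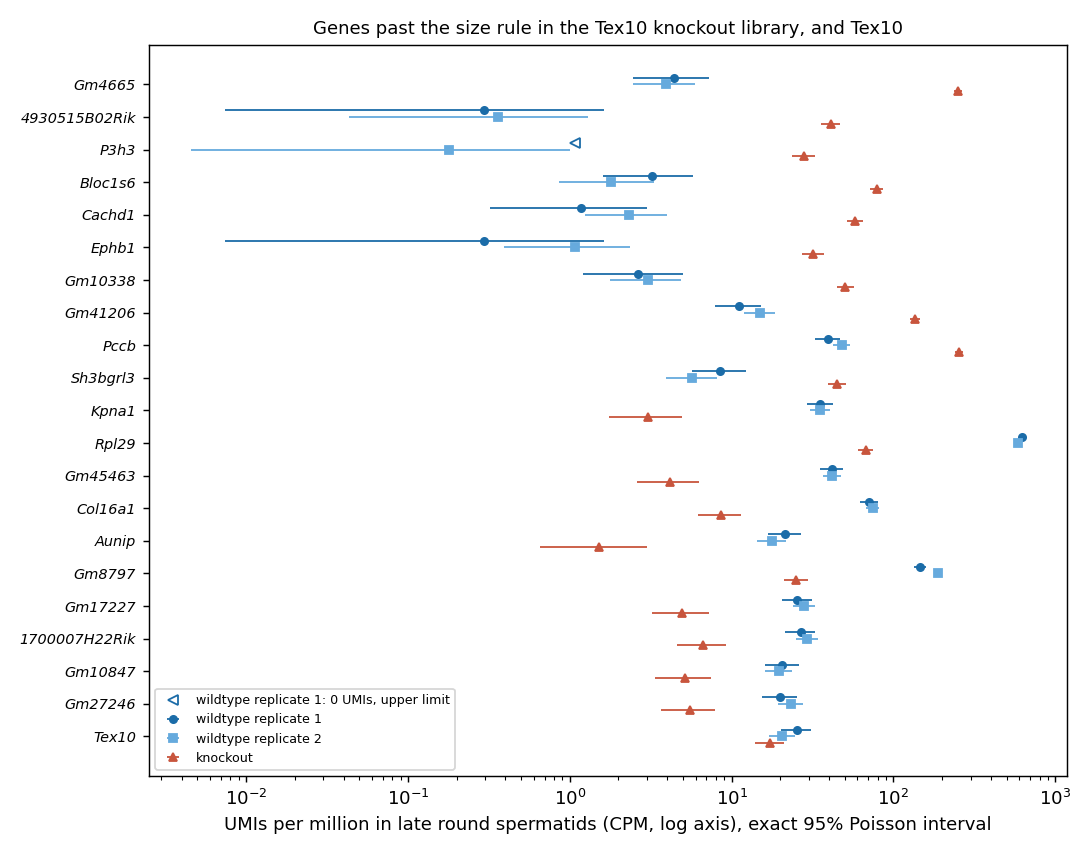
CPM in members (log axis) with exact 95% Poisson intervals for the 10 higher and 10 lower genes named by the size rule and for Tex10, by library. An open arrow gives the upper limit for P3h3 in wildtype replicate 1, which had 0 UMIs. In the named genes the knockout library lies apart from the wildtype libraries because the size rule picked them for this, in P3h3 through 1 barcode. Tex10 was not picked by the rule, and its intervals overlap.

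Genes detected per cell at equal depth were close between libraries. After each cell was thinned to 10000 UMIs, the median member had 3325, 3295 and 3310 genes with a UMI, and early round cells had 3391 to 3398. The X share of member UMIs was 0.121 percentage points higher in the knockout library than the wildtype mean, and 0.0877 points without the Sertoli-marked barcodes.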

How the data were processed

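Testis cells of 3 libraries were profiled with a 3′ droplet assay. The authors deposited unnormalized UMI counts in sparse matrices. Per the file headers these came from Cell Ranger 4.0.0. Alignment to mm10 and Seurat 4.0.5 are named in the submitters' processing notes, and strand use and annotation are not given in the sources used here. Gene positions come from GENCODE release M21 (32235 of 32285 genes matched).

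From these counts, UMIs were summed over the cells of each stage in each library (9 sums). The 14 rule genes and the mitochondrial genes were left out. Stages were compared with edgeR 4.0.16 (quasi-likelihood test, TMM, filterByExpr with a minimum count of 10, library as block, Benjamini-Hochberg adjustment). A call needed an adjusted p under 0.05 and a log2 change of at least 1. DESeq2 1.42.0, other filters, other limits, thinned cells and left-out libraries were alternatives. Scanpy 1.11.5 gave Scrublet scores for 1 alternative. Knockout and wildtype members were compared by size alone, with 1 CPM added before ratios. Summed depth limits the precision of low genes, and intervals cover counting error only. Members, gene lists and rules were chosen with earlier results of these data known.

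Named genes were the 10 largest rises and falls per comparison among called genes that moved the same way in all libraries with at least 50 CPM in the higher stage, the 10 above both neighbours with the largest smaller change and 50 CPM, the 10 higher and lower genes of the knockout with the largest smaller ratio, Tex10, and the genes of the lists. Comparisons within the members, scaling without TMM and leaving out Sertoli-marked barcodes were chosen after seeing the data. Shared transcript ends were counted as 31-base words in the last 500 bases of each transcript.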

Additional observations from a re-analysis of the deposited data

Results flagged for a closer look

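In some named genes every wildtype library moved one way between stages and the knockout library the other way. The difference was not tested, since there is 1 knockout library, and changes are log2 ratios after adding 1 CPM. From early round to members, Bloc1s6 had -0.26 and -0.54 in wildtype and 1.04 in knockout members, and from elongating to members it had 0.76, 0.51 and -0.25. Kpna1 had 0.70, 0.49 and -0.19 against early round, and -0.45, -0.27 and 0.42 against elongating. P3h3 had -1.78, -0.29 and 3.42 against early round, from wildtype levels under 3 CPM, and 147 of its 148 knockout UMIs in members lay in 1 barcode. For 4930515B02Rik the values were 0.06, 0.05 and -0.34, for Gm36368 they were 0.31, 0.00 and -0.19, both against early round. Against elongating, Ephb1 had -1.11, -0.13 and 0.0385 and Gm10847 had 0.36, 0.00 and -0.43. Several of these values lie near 0, where the sign carries little.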

How the results depend on the processing

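Genes higher than early round (2930) and lower than elongating (1865) stayed within 1.5 times the main count under every alternative run. Lower than early round, 1010 became 554 with thinned cells and 1635 without TMM. Higher than elongating, 1297 became 774 with members of 1% to under 4%, 2701 without TMM, and 804 to 1645 when 1 library was left out, lowest without the knockout library. Above both, 553 became 332 with DESeq2, 332 with thinned cells, 831 without TMM and 273 to 512 with 1 library left out. Below both, 140 became 87 with thinned cells and 58 to 165 with 1 library left out. Without the replicate block, 372 genes were above both and 114 below, and within members 145 in place of 227 were lower. Within members, lower genes ran from 178 to 447 with 1 library left out. Stages were paired by library through the block. Knockout and wildtype libraries could not be paired, because the knockout has 1 library and shares fewer than 2 replicate numbers with the wildtype.

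For the knockout, 32 higher and 38 lower became 87 and 95 at 1.5-fold and 226 and 131 without the CPM filter. Higher genes were 65 with thinned cells and 53 to 118 with 1 wildtype library left out, lower genes 43 to 70. The X share difference of 0.121 points was 0.131 at 20000 UMIs, 0.0563 at 1% to under 4%, 0.0848 without the highest 8% of doublet scores and 0.0877 without Sertoli-marked barcodes. The difference in member cells per library, -2.09 points of their share, ran from -3.59 to -0.586 with 1 wildtype library left out.

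Among values of single genes, 7097 kept direction and call, 240 lost the call, 207 gained it and 8 reversed. Without Sertoli-marked barcodes, values against elongating were -0.18 for Ctsl, -0.0142 for Clu, -0.56 for Defb19, -0.48 for Aard, -0.42 for Cst9 and -0.39 for Cst12. Clu, Defb19 and Aard are among the markers by which those barcodes were picked. The value of the Leydig marker Cyp17a1, members against elongating spermatids, went from 0.14 to -2.56 without the highest doublet scores and from -2.67 to 4.11 with 1 library left out. The cause of these changes was not tested.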

Other observations

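Genes of the beta-catenin destruction complex and its TCF partners gave 3 higher and 2 lower than early round among 13 tested of 17 listed, against 22.2% and 7.65% of all genes, with a median log2 fold change of 0.34 (1 higher and 3 lower without TMM). Gsk3b, a kinase that marks beta-catenin for destruction, had 175, 179 and 197 CPM in early round spermatids and 292, 326 and 339 CPM in members. Tcf7l2, a TCF factor, had 2.64, 3.05 and 5.51 CPM in members and 22.1, 17.2 and 22.4 CPM in elongating spermatids, so members were at the low end of its rise. Tle3 was the third higher gene, and Gsk3a and Nkd2 were lower.

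Sperm membrane channel and fertilization genes gave 3 higher and 3 lower than early round among 23 tested of 24 listed, against 22.2% and 7.65% of all genes, with a median of -0.10. Catsperd, an auxiliary subunit of the sperm calcium channel, had 32.5, 36.3 and 30.1 CPM in early round, 25.2, 27.8 and 26.4 CPM in members and 95.7, 90.7 and 119 CPM in elongating spermatids (log2 -2.29 ± 0.15 against elongating, edgeR adjusted p = 1.22e-07). In these CPM without TMM, the members of all 3 libraries lay below both other stages. TMM factors were 1.17 to 1.21 in early round and 1.01 to 1.04 in members, so the gap to early round depends on scaling.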
